A study of Mus musculus with 6 samples.

Results

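The 37 genes of the mouse mitochondrial genome were examined in heart RNA. They are all rows of the deposited gene table whose name starts with mt-, 37 of 14956 genes, and they make up 13 protein-coding, 2 ribosomal RNA and 22 transfer RNA genes. All 37 were found by identifier and name among the 37 mitochondrial genes of GENCODE M21 (GRCm38, the assembly also called mm10), which gave positions, strands and lengths. RNA came from 6 mouse hearts, 3 with both Otub1 copies (Otub1 +/+, WT) and 3 with 1 disrupted copy (Otub1 +/-, Het). OTUB1 is a deubiquitinase, and every mouse of both groups had received DOX (doxorubicin, an anthracycline cancer drug that injures the heart) in 6 injections over 2 weeks. No untreated heart is part of the comparison, and the labels name no strain, age, sex or cell type for the disrupted allele. The comparison asked how the level of each mitochondrial transcript differed between treated Het and treated WT hearts. Levels are FPKM, fragments scaled by gene length and by the mapped fragments of the library. Levels are set between genes on this scale, with less certainty for genes shorter than a fragment or with near-identical copies.

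The mitochondrial genome is a small circle transcribed as long precursors from both strands. Most genes lie on 1 strand, written plus here, and the tRNA genes stand between the others like punctuation. Enzymes cut the tRNAs out at both ends and thereby free the mRNAs and rRNAs, and most mitochondrial mRNAs then receive a short poly(A) tail. The mRNAs encode core subunits of respiratory complexes I, III and IV and of ATP synthase (complex V), the rRNAs belong to the mitochondrial ribosome, and the tRNAs serve its own genetic code. Heart muscle is dense in mitochondria, and their mRNAs are among its most abundant poly(A) RNAs. Poly(A) selection preceded library construction. Reads in a tRNA gene can therefore come from tailed precursors or neighbouring transcripts as well as from tRNA, and these sources cannot be told apart in gene-level values.

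The genes that stood out lie side by side between mt-Nd1 and mt-Nd2, and their sequences (GENCODE M21 transcripts, GRCm38, 5′ to 3′ on each gene's own strand) are shown to place them and their overlaps; no link between sequence and level was tested. mt-Ti encodes the tRNA for isoleucine at chrM:3706-3774, plus strand. mt-Tq encodes the tRNA for glutamine at chrM:3772-3842, minus strand. mt-Tm encodes the tRNA for methionine at chrM:3845-3913, plus strand. Capitals mark the anticodon.
mt-Ti: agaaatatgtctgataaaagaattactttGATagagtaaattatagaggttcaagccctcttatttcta
mt-Tq: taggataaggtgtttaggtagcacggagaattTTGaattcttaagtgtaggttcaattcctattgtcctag
mt-Tm: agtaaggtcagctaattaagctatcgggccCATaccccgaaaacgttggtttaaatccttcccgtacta
The flanks of the group follow, with the 2 bases that mt-Nd1 shares with mt-Ti and the first codon of mt-Nd2 in capitals. The mt-Nd1 stretch is chrM:3648-3707 and the mt-Nd2 stretch is chrM:3914-3973, both on the plus strand.
mt-Nd1, last 60 bases: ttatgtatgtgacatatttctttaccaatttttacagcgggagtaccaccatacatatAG
mt-Nd2, first 60 bases: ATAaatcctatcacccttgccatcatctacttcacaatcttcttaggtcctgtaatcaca
mt-Ti and mt-Tq overlap by 3 bases on opposite strands, 2 bases separate mt-Tq from mt-Tm, and mt-Tm abuts mt-Nd2. Each tRNA gene is 59 to 75 bases long, while the labels give library inserts of 300 ± 50 bp, so a fragment of that size over a tRNA gene also covers its neighbours. The labels describe a stranded library but leave unsaid whether quantification kept the strands apart, so reads of mt-Tq cannot be told apart from those of a plus-strand transcript that runs across it.

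The hearts differed in more than genotype. The mitochondrial genes held 51.5% to 54.0% of summed FPKM in WT, 54.8% in Het 2, 56.1% in Het 3 and 65.0% in Het 1. Across tested genes on the log2(FPKM + 1) scale, the correlation of Het 1 with any other heart was 0.844 to 0.887, and 0.966 to 0.987 among the other 5. All 10 cardiomyocyte markers were present in every heart, and their summed FPKM was 22604 to 24643 in WT, 20285 in Het 2, 19973 in Het 3 and 10277 in Het 1. Each of the 10 was below every WT heart in Het 1, but by unequal factors. Tnni3 read 1100 FPKM in Het 1 against 1134 to 1257 in WT, and Actc1 1086 against 5896 to 7519. In bulk RNA, fewer cells of a type and less RNA per cell cannot be told apart. The 7 erythroid markers summed to between 1006 and 1395 FPKM over the WT hearts, with 5707 for Het 1, 2404 for Het 2 and 680.2 for Het 3. The 10 lung epithelial markers summed to 830.1 FPKM in Het 3 and to at most 0.680 elsewhere, where the club cell gene Scgb1a1 was listed at 0. The 9 listed hepatocyte markers summed to 127 to 185 FPKM in WT and to 1.96, 45.5 and 0.985 FPKM in Het 1, 2 and 3, with Apoa1, Apoa2, Fabp1, Fgb and Ttr at 0 in at least 1 heart. The part of these differences in the mitochondrial results was not tested. Otub1 read 15.4, 14.9 and 14.2 FPKM across the WT hearts, against 4.83, 6.48 and 6.65 in Het 1, 2 and 3, so every Het heart was below every WT heart.

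**Figure D1:**
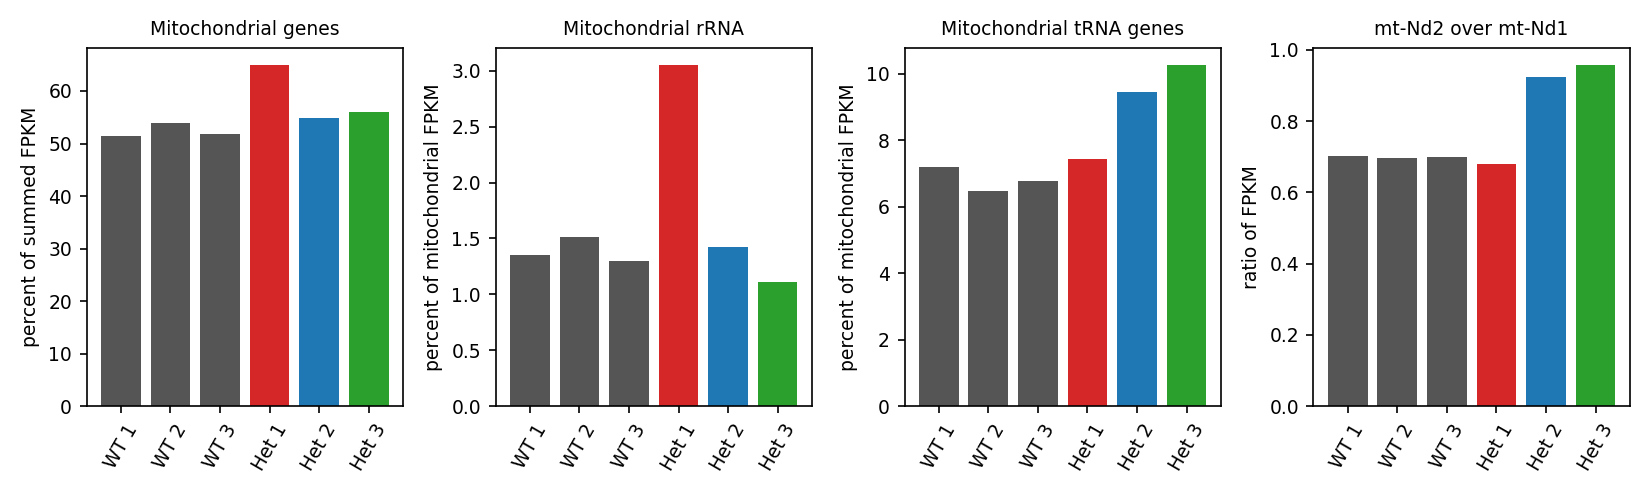
Bars give 1 value per library (grey WT, red Het 1, blue Het 2, green Het 3). From the left, the panels show mitochondrial genes as percent of summed FPKM, rRNA and tRNA genes as percent of mitochondrial FPKM, and the ratio of mt-Nd2 to mt-Nd1; Het 1 is highest in the first and second panels at 65.0% and 3.05%, and Het 2 and Het 3 are highest in the third and last.

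The 13 mRNA genes were the most abundant class and held 91.5% to 92.0% of mitochondrial FPKM in WT and 88.6% to 89.5% in Het. Among the 3 complex IV (cytochrome c oxidase) genes, mt-Co1 was the highest of all members at 64157 ± 3539 FPKM in WT (mean ± SD, n = 3, as below). mt-Co2 had 18878 ± 2641 FPKM and mt-Co3 18563 ± 1835 FPKM in WT. Both ATP synthase genes were high, with mt-Atp8 at 27195 ± 2441 FPKM and mt-Atp6 at 21283 ± 1893 FPKM. These genes overlap by 43 bases and are carried on 1 mRNA, so reads in the overlap cannot be assigned to either. mt-Cytb, the cytochrome b of complex III, had 27082 ± 2269 FPKM.

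The 7 complex I genes spanned the widest range of the mRNAs as a ratio of highest to lowest. In WT, mt-Nd1 had 23733 ± 1104 FPKM, mt-Nd4 17466 ± 1235, mt-Nd2 16604 ± 708, mt-Nd5 12044 ± 108 and mt-Nd4l 10560 ± 106 FPKM, where mt-Nd4l and mt-Nd4 overlap by 7 bases on 1 mRNA. mt-Nd3 was the lowest mRNA at 1005 ± 115 FPKM. mt-Nd6, the single mRNA gene on the minus strand, had 10072 ± 641 FPKM, or 0.837 ± 0.0593 of the mt-Nd5 level. It overlaps mt-Nd5 by 14 bases and lies opposite the plus-strand precursor, so without known use of strand its level is uncertain.

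Both rRNA genes were listed well below most mRNAs, in libraries selected for poly(A). mt-Rnr1 (the 12S rRNA of the small ribosomal subunit) stood at 1274, 1796 and 1282 FPKM in WT 1, 2 and 3. mt-Rnr2 (the 16S rRNA of the large subunit) stood at 2491, 2941 and 2447 FPKM. Together they made up 1.39% ± 0.107 of mitochondrial FPKM in WT.

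The 22 tRNA genes ranged in WT from 8.45 ± 0.663 FPKM for mt-Tf (phenylalanine) to 5299 ± 530.4 FPKM for mt-Ts1 (serine). Levels differed by annotated strand. All 8 tRNA genes on the minus strand were above 300 FPKM, from mt-Tp (proline) at 366 ± 23.7 to mt-Ts1. Of the 14 on the plus strand 9 were below 100 FPKM and 4 above 300 FPKM. Those 4 were mt-Tl1 (leucine) at 2328 ± 87.6, mt-Tm at 1716 ± 157, mt-Ti at 489.8 ± 50.7 and mt-Tw (tryptophan) at 364 ± 16.9 FPKM. The plus-strand genes below 100 FPKM include mt-Tf and mt-Tv (valine, 15.5 ± 2.60 FPKM), which flank mt-Rnr1, and mt-Td (aspartate, 37.8 ± 2.92 FPKM) and mt-Tk (lysine, 26.2 ± 1.43 FPKM), which flank mt-Co2. The minus-strand genes lie opposite the path of the plus-strand precursor, and mt-Ts1 overlaps the end of mt-Co1 by 3 bases. The strand was no part of how the genes were chosen, and the order is a description with no test.

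**Figure D2:**
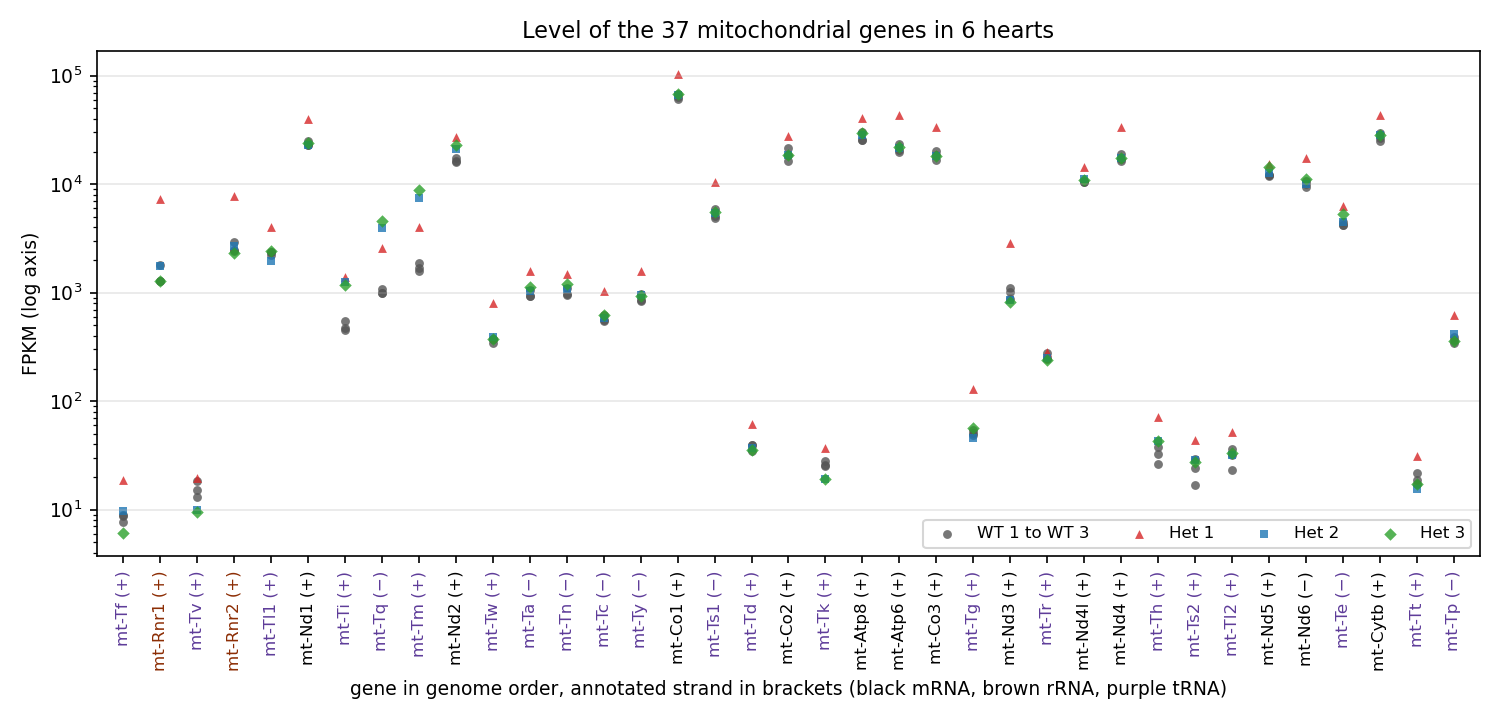
Each point is the FPKM of 1 gene in 1 heart on a log axis, with the 37 genes in genome order and their annotated strand in brackets (grey circles WT, red triangles Het 1, blue squares Het 2, green diamonds Het 3). The lowest mRNA is mt-Nd3 at a WT mean of 1005 FPKM, minus-strand tRNA genes lie above 300 FPKM, and 9 plus-strand tRNA genes lie below 100 FPKM in WT.

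All 37 genes passed the filter of 1 FPKM or more on average and were tested with limma, a linear model with shared variance, over 11096 genes. At an adjusted p of 0.05 limma called 0 of the 37, and 0.018% of all genes. At an unadjusted p under 0.05 there were 4 of 37, mt-Ti, mt-Tq, mt-Tm and mt-Nd2, all higher in Het, against 3.88% of all genes in either direction and 0.802% higher. These 4 are neighbours that can share fragments, so they are not independent. The mean was higher in Het for 35 of 37, against 25.9% of all genes, and the groups did not overlap for 9 of 37, all higher in Het, against 1.83% of all genes in that direction. None lay wholly below WT, where 15.6% of all genes did. Het 1 was the highest of the 6 hearts for 35 of 37 genes, against 18.1% of all genes. The median log2 fold change was 0.32 over the 37 genes and −0.18 over all genes. Without Het 1 these medians were 0.07 and −0.04, and with libraries scaled to mitochondrial mRNA they were 0.02 and −0.38. With both settings together, chosen after seeing the data, they were −0.01 and −0.10, so the direction of the median member turned in that setting. The 37 genes take up more than 50 of every 100 FPKM units, so their levels and those of all other genes are not independent on this scale.

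The 3 tRNA genes mt-Ti, mt-Tq and mt-Tm were above the WT range in each of the Het hearts. mt-Ti read 473, 547 and 449.5 FPKM across the WT hearts, against 1407, 1258 and 1173 in Het 1, 2 and 3. The lowest Het value was above the highest WT value, and the Het hearts lay close together. mt-Tq read 1087, 991 and 1002 FPKM across the WT hearts, against 2587, 3908 and 4608 in Het 1, 2 and 3. mt-Tm read 1885, 1575 and 1689 FPKM across the WT hearts, against 4035, 7483 and 8909 in Het 1, 2 and 3. For mt-Tq and mt-Tm Het 1 was the lowest of the Het hearts, whereas it was the highest library for each of the other 35 members. Het 3, the highest heart for mt-Tq and mt-Tm, is also the one with lung epithelial markers, and without it the log2 fold changes were 1.45, 1.63 and 1.68 for mt-Ti, mt-Tq and mt-Tm (limma, adjusted p 0.238, 0.197 and 0.305).

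Group means were higher in Het by 2.61-fold for mt-Ti, 3.61-fold for mt-Tq and 3.97-fold for mt-Tm. On the log2(FPKM + 1) scale the fold changes were 1.38 (SE 0.23), 1.81 (SE 0.28) and 1.91 (SE 0.34). Relative to the median gene they were 1.56, 1.99 and 2.09. With limma they had adjusted p values of 0.435, 0.376 and 0.554, short of the threshold. Without Het 1 the limma adjusted p values were 0.0141, 0.00105 and 0.00105, at log2 fold changes of 1.31, 2.05 and 2.25. The 3 genes were the only ones of 11096 called higher there (0.027%, and 0.0721% in either direction). They are neighbours shorter than the library insert, so the 3 calls may rest on shared fragments and are not independent. Library weights gave Het 1 a weight of 0.0486 against 1.51 to 2.55 for the other libraries. With them the limma adjusted p values were 0.00385, 2.2e-04 and 2.2e-04, where 0.036% of all genes were called higher. The authors' deposited table lists these 3 as its only mitochondrial genes at an adjusted p under 0.05, with 0.776% of its genes higher and 0.241% lower. An unadjusted p under 0.05 is listed in the authors' deposited table for 6 of the 37, and for 7.08% of all its genes.

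**Figure D3:**
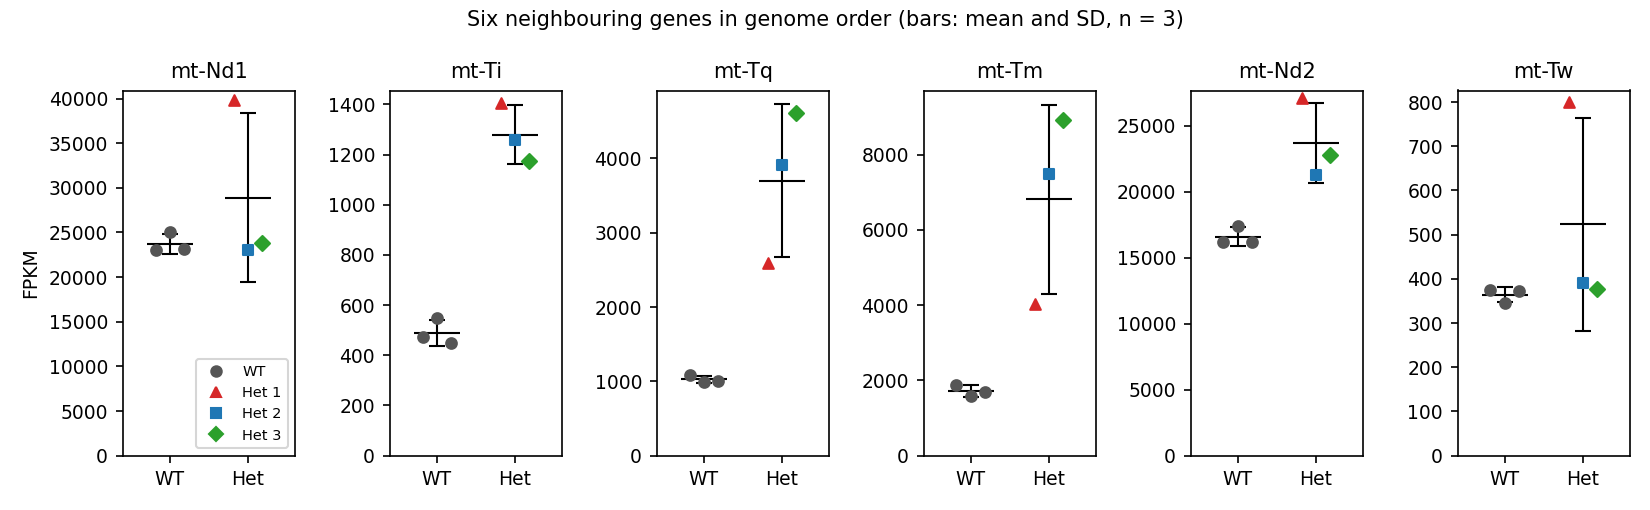
FPKM of 6 neighbouring genes in genome order, 1 point per heart (grey WT, red Het 1, blue Het 2, green Het 3), with horizontal bars and whiskers for mean and SD (n = 3 per group). For mt-Ti, mt-Tq, mt-Tm and mt-Nd2 all Het points lie above all WT points, while for mt-Nd1 Het 2 and Het 3 lie at the WT level.

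The difference was measured inside a narrow stretch. Upstream, mt-Nd1 read 23086, 25008 and 23104 FPKM across the WT hearts, against 39876, 23042 and 23811 in Het 1, 2 and 3. Het 2 and Het 3 were 0.971 and 1.00 times the WT mean there. One gene on, at mt-Ti, these hearts stood at 2.57 and 2.40 times the WT mean, at mt-Tq at 3.81 and 4.49 times, and at mt-Tm at 4.36 and 5.19 times. At mt-Nd2 they stood at 1.28 and 1.37 times, and at mt-Tw, the next gene, at 1.08 and 1.04 times. In Het 1 the order within the group was the reverse, with mt-Ti at 2.87, mt-Tq at 2.52 and mt-Tm at 2.35 times the WT mean.

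mt-Nd2, which encodes a subunit of the membrane arm of complex I, read 16211, 17422 and 16180.0 FPKM across the WT hearts, against 27130.1, 21281 and 22802 in Het 1, 2 and 3. All Het hearts were above all WT hearts. limma gave a log2 fold change of 0.51 (SE 0.20; adjusted p 0.753), and without Het 1 one of 0.41 (SE 0.08; adjusted p 0.185). The ratio of mt-Nd2 to mt-Nd1 varied little in WT, at 0.702, 0.697 and 0.700 in WT 1, 2 and 3. It was 0.924 in Het 2 and 0.958 in Het 3, and 0.680 in Het 1. By this ratio Het 2 and Het 3 stood above WT and Het 1 just below it.

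The group was also higher in Het relative to mitochondrial mRNA. As a share of summed mitochondrial mRNA FPKM, mt-Tm was 0.743%, 0.545% and 0.641% in WT and 0.909%, 2.68% and 3.12% in Het 1, 2 and 3. mt-Tq was 0.428%, 0.343% and 0.380% in WT and 0.583%, 1.402% and 1.61% in Het. mt-Ti was 0.186%, 0.189% and 0.171% in WT and 0.317%, 0.451% and 0.410% in Het. For each of the 3 genes the lowest Het share was above the highest WT share. With libraries scaled to mitochondrial mRNA the log2 fold changes were 1.09 for mt-Ti, 1.52 for mt-Tq and 1.62 for mt-Tm, and limma gave each an adjusted p of 0.532. With that scaling and without Het 1, a setting chosen after seeing the data, the adjusted p values were 7.2e-04, 2.1e-06 and 1.7e-06, where 0.0631% of all genes were called higher.

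The tRNA class took a larger share of mitochondrial FPKM in Het, and the difference lay in these genes. The 22 tRNA genes made up 6.80% ± 0.360 of mitochondrial FPKM in WT and 9.05% ± 1.46 in Het. By heart the share was 6.47% to 7.18% in WT and 7.42%, 9.45% and 10.3% in Het 1, 2 and 3, so Het 1 lay just above WT. The group of 3 made up 1.11% ± 0.126 in WT and 1.62%, 4.04% and 4.56% in Het 1, 2 and 3. The other 19 tRNA genes held 5.69% ± 0.234 in WT and 5.64% ± 0.210 in Het, so their share differed by less than the spread between hearts. Weighted by gene length, as a measure of relative fragments, the group of 3 was a small part of mitochondrial signal, at 0.0810% ± 0.00905 in WT and 0.119%, 0.303% and 0.343% in Het 1, 2 and 3. mt-Nd2 held 6.18% ± 0.156 of that signal in WT and 5.98%, 7.59% and 7.93% in Het.

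**Figure D4:**
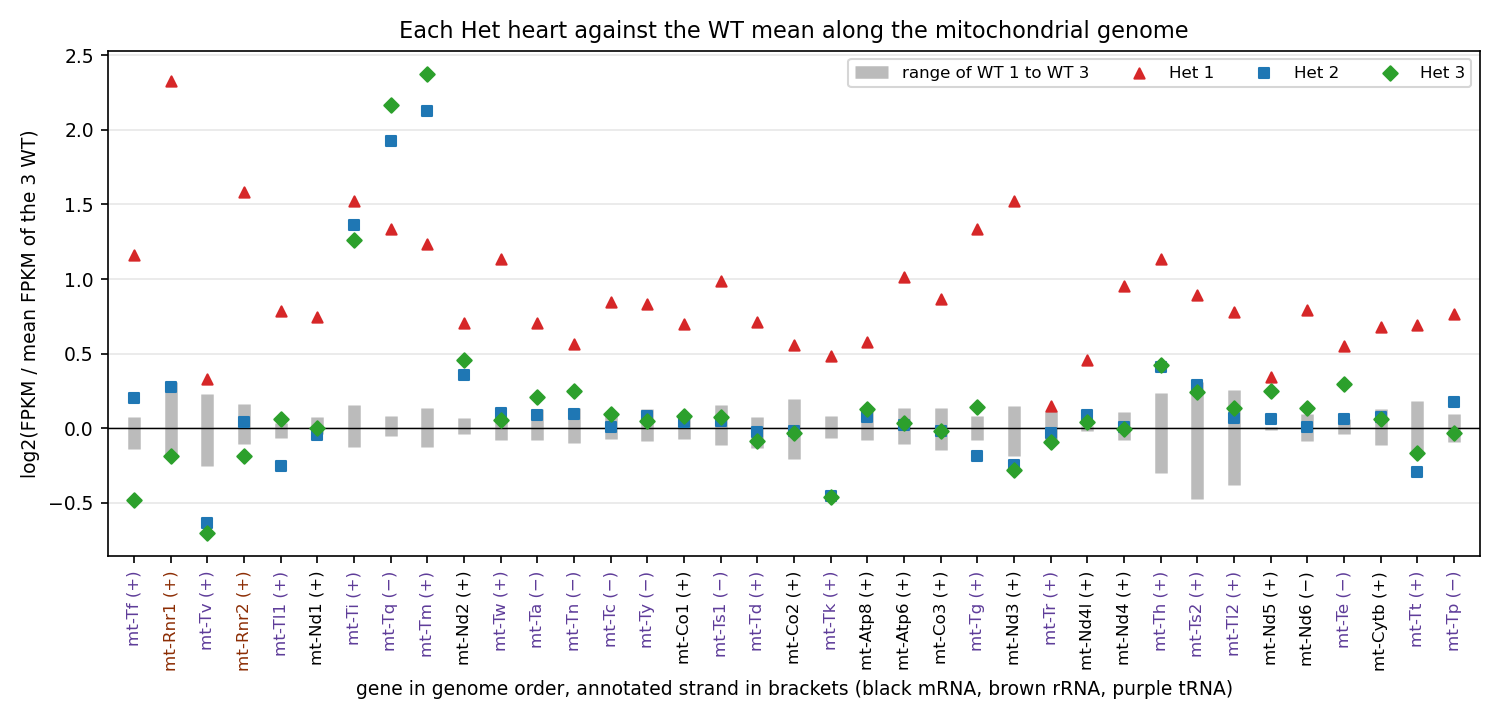
Log2 of FPKM in each Het heart over the mean of the 3 WT hearts, with the 37 genes in genome order (red triangles Het 1, blue squares Het 2, green diamonds Het 3). Grey bars span WT 1 to WT 3. Het 1 lies above 0 at every gene and furthest at mt-Rnr1 (2.33), while Het 2 and Het 3 reach 2.12 and 2.38 at mt-Tm.

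The rRNA genes were high in Het 1 and near the WT level in the other Het hearts. In Het 1, 2 and 3, mt-Rnr1 read 7270.3, 1753 and 1278 FPKM, and mt-Rnr2 read 7865, 2706 and 2315 FPKM. Set beside the WT values above, Het 2 and Het 3 fall within or just below the WT range, and Het 1 lies at 5.01 and 2.99 times the WT mean. Log2 fold changes were 0.82 (SE 0.65) for mt-Rnr1 and 0.49 (SE 0.48) for mt-Rnr2 (limma, adjusted p 0.753 each). Without Het 1 they were 0.06 and −0.06. The ratio of mt-Rnr2 to mt-Rnr1 was 1.64 to 1.96 in WT, 1.54 in Het 2, 1.81 in Het 3 and 1.08 in Het 1.

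Het 1 did not differ from WT by a common factor along the genome. Its level over the WT mean ran from 1.11 for mt-Tr (arginine) to 5.01 for mt-Rnr1, with a median of 1.73 over the 37 genes. Among the mRNAs it ran from 1.27 for mt-Nd5 to 2.87 for mt-Nd3. The complex I gene mt-Nd3 read 2888 FPKM in Het 1, while Het 2 and Het 3 read 849 and 829 and the WT hearts read between 884 and 1113. That was 0.0855 of the mt-Co3 level next to it in Het 1, and 0.0453 to 0.0551 in the other hearts. The ratio of mt-Atp8 to mt-Atp6 was 0.942 in Het 1 and 1.25 to 1.36 in the other hearts. For mt-Nd6 over mt-Nd5, which lie on opposite strands, Het 1 was at 1.14 and the other hearts at 0.774 to 0.902. The summed FPKM of the 37 genes was 48.2 times that of the 10 cardiomyocyte markers in Het 1, 11.3 to 13.9 times in WT, and 15.4 and 16.1 times in Het 2 and Het 3. The erythroid markers given above are also highest in Het 1, and their part in these values was not tested.

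In Het 2 and Het 3 most other members stayed near WT. Over the 33 genes other than mt-Ti, mt-Tq, mt-Tm and mt-Nd2, the mean of these hearts was between 0.629 and 1.34 times the WT mean, with a median of 1.04. The lowest was mt-Tv, at 18.2, 15.3 and 13.03 FPKM in WT and 19.5, 9.99 and 9.53 FPKM in Het 1, 2 and 3. mt-Tk read 25.0, 27.8 and 25.9 FPKM across the WT hearts, against 36.6, 19.1 and 19.1 in Het 1, 2 and 3. Both were below every WT heart in Het 2 and Het 3 and above every WT heart in Het 1. Their log2 fold changes were −0.30 (SE 0.31) and −0.13 (SE 0.30), and limma gave adjusted p values of 0.754 and 0.846. Without Het 1 these were −0.61 and −0.44, with adjusted p values of 0.247 and 0.215. The highest was mt-Th (histidine), at 26.1, 38.0 and 32.4 FPKM in WT and 70.8, 42.8 and 43.3 FPKM in Het. Its groups did not overlap, and limma gave a log2 fold change of 0.66 (SE 0.29; adjusted p 0.753). Of all 37 genes, 9 were above and 3 below every WT heart in both Het 2 and Het 3, where 10.9% and 21.8% of all genes were. The 3 below were mt-Tv, mt-Tk and mt-Nd3.

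Beside mt-Ti, mt-Tq, mt-Tm, mt-Nd2 and mt-Th, the groups did not overlap for 4 further members, and the gaps were small. mt-Te, the minus-strand tRNA gene for glutamate beside mt-Nd6, read 4211, 4501 and 4246 FPKM across the WT hearts, against 6345, 4516 and 5311 in Het 1, 2 and 3. mt-Nd5, a large membrane-arm subunit of complex I, read 12066, 11927 and 12139 FPKM across the WT hearts, against 15264, 12607 and 14331 in Het 1, 2 and 3. mt-Te and mt-Nd5 were both higher in Het 3 than in Het 2, and highest in Het 1. mt-Nd4l, another membrane-arm subunit, read 10569, 10661 and 10449.9 FPKM across the WT hearts, against 14502, 11216 and 10867 in Het 1, 2 and 3. mt-Tw read 375, 344 and 372 FPKM across the WT hearts, against 800.3, 391 and 378 in Het 1, 2 and 3. For mt-Tw and mt-Nd4l, Het 2 and Het 3 lay just above the highest WT heart. Their log2 fold changes were 0.31 for mt-Te, 0.22 for mt-Nd5, 0.20 for mt-Nd4l and 0.43 for mt-Tw, and limma gave adjusted p values of 0.753 to 0.756. These depended on the scaling. Scaled to mitochondrial mRNA they were 0.015 for mt-Te, −0.072 for mt-Nd5, −0.096 for mt-Nd4l and 0.14 for mt-Tw. mt-Nd5 and mt-Nd4l also turned with quantile normalization, to −0.10 and −0.082.

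By strand, the 8 minus-strand tRNA genes stood at 1.47 to 2.52 times the WT mean in Het 1, with a median of 1.74, and the 14 on the plus strand at 1.11 to 2.87 times, with a median of 1.79. In Het 2 the medians were 1.06 and 1.02, and in Het 3 they were 1.11 and 1.04. The gene furthest above WT in Het 2 and Het 3 was mt-Tq on the minus strand and mt-Tm on the plus strand. The high levels of the stretch between mt-Nd1 and mt-Nd2 were thus listed for genes annotated on both strands. Because the use of strand in quantification is unknown, the strand of the reads themselves cannot be told. The 13 mRNA genes had medians of 1.63, 1.02 and 1.03 times the WT mean in Het 1, 2 and 3.

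Nuclear copies of mitochondrial sequence resemble 9 of the 13 mRNA genes closely enough to share reads. In these, stretches of at least 50 bases match an annotated nuclear pseudogene at 95% identity or more, and 11 such pseudogenes are listed in the table. Several cover the whole gene or nearly so. Gm10925 on chromosome 1 matches mt-Atp6 over 678 bases at 100% and had a mean of 25805 FPKM over the 6 hearts, where mt-Atp6 itself had 25054. Gm28438, also on chromosome 1, matches mt-Nd3 over 345 bases at 99.7% and read 2675 FPKM in Het 1, while the other hearts read between 752 and 1034. The 11 pseudogenes together took 14.9% to 16.1% of summed FPKM in WT, 15.1% in both Het 2 and Het 3, and 20.3% in Het 1. Reads could be split between such copies, so the levels of mt-Co1, mt-Co2, mt-Co3, mt-Atp6, mt-Nd3, mt-Nd4l and mt-Nd4 are uncertain. The match of mt-Nd5, Gm4076 on chromosome 13, was at 0.475 to 1.54 FPKM. None of the 22 tRNA genes, neither rRNA gene, nor mt-Nd1 had such a match among annotated transcripts. Nuclear sequence outside annotated transcripts was not searched, so copies of these genes there remain unknown. mt-Nd2 had a match of 510 bases at 96.7% to Gm13339 on chromosome 2, which stood at 5.74 to 17.0 FPKM.

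Genes of the nucleus that make, process or charge mitochondrial RNA gave no call. Of 79 such genes 73 were tested, and limma called 0 at an adjusted p of 0.05. At an unadjusted p under 0.05 there were 0 higher and 3 lower of the 73, near the shares over all genes of 0.802% higher and 3.08% lower. Their median log2 fold change was −0.24 against −0.18 over all genes, and the groups did not overlap for 17 of 73, all lower in Het, where 15.6% of all genes were. The medians were −0.21 for 13 replication and transcription genes, −0.20 for 39 processing, stability and modification genes and −0.28 for 21 charging genes. Without Het 1 the median of the 73 was −0.04, as was that of all genes.

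The 4 members with the smallest p had lower means in Het, none past the threshold. Lars2, which charges the mitochondrial leucine tRNA, read 10.6, 12.6 and 14.1 FPKM across the WT hearts, against 6.18, 8.91 and 7.43 in Het 1, 2 and 3. Mrm3, a methyltransferase of the mitochondrial 16S rRNA, read 10.6, 7.74 and 8.73 FPKM across the WT hearts, against 3.91, 6.01 and 5.86 in Het 1, 2 and 3. In both genes, and in Qrsl1 and Mrm1 given next, every Het heart was below every WT heart, as for 15.6% of all genes. Qrsl1, a subunit of the complex that makes glutamine-charged mitochondrial tRNA, averaged 7.39 ± 1.19 FPKM over the WT hearts and 4.40 ± 1.47 over the Het hearts (SD, n = 3). Mrm1, another 16S rRNA methyltransferase, had 5.89 ± 0.873 and 4.38 ± 0.571 FPKM (SD, n = 3). The log2 fold changes were −0.66 for Lars2, −0.69 for Mrm3, −0.67 for Qrsl1 and −0.36 for Mrm1, and limma gave all 4 an adjusted p of 0.753.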

How the data were processed

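Poly(A) RNA of 6 hearts was sequenced, 1 library each, per the labels. The submitters' processing notes list edgeR, DESeq2, StringTie 1.3.4d, HISAT2 2.0.4 and cutadapt 1.9 with the build mm10 and no roles. The deposited values are FPKM, inferred from the values and from StringTie. Per the file headers, the deposited table also holds the authors' p-values and q-values, a fold change ratio, its log2 and −log10 p. No counts are given, so depth is unknown and no counting interval is printed. The error is the spread between hearts, with 3 mice per group. The limma p-values set the group difference against that spread, with variance shared across genes. Which test gave the authors' p-values is not stated.

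limma 3.58.1 (R 4.3.3) was run on log2(FPKM + 1) for the 11096 genes that averaged 1 FPKM or more, with trended, robust variance and Benjamini-Hochberg adjustment over all tested genes. This scale understates changes of low genes. Nuclear matches came from blastn 2.17.0 against GENCODE M21 transcripts. Figures used matplotlib 3.10.9. Alternatives were other pseudocounts, filters and scalings, library weights, a replicate block and leaving out each library.

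Members and lists were chosen with earlier results of these data known. Full values are given for members past the threshold with or without any 1 library, for up to 5 with the smallest p per direction, and for the rRNAs. In the nuclear list they are given for the 4 with the smallest p. Other named members were chosen after their values were seen. Of the marker lists, macrophage markers summed to 127 to 143 FPKM in WT and 145 to 247 in Het. Endothelial markers summed to 196 to 241 and 174 to 267, fibroblast markers to 116 to 143 and 78.6 to 119, smooth muscle markers to 60.3 to 65.1 and 35.4 to 130.3, and the 1 listed neuronal marker to 3.01 to 3.23 and 2.32 to 3.08 FPKM.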

Additional observations from a re-analysis of the deposited data

How the results depend on the processing

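None of the 37 mitochondrial genes passed in limma's test or in 13 of 16 alternatives. In the other 3 (library weights, without Het 1, and without Het 1 scaled to mitochondrial mRNA) 3 passed, mt-Ti, mt-Tq and mt-Tm. The last of these settings was chosen after seeing the data. All 3 settings leave out Het 1 or give it a weight of 0.0486, so they are not separate support. Leaving out single libraries gave 0 to 3 members and 1 to 38 of all genes, against 2 of all genes in the full fit. That count was 1 without any 1 WT heart, 8 without Het 1, 25 without Het 2 and 38 without Het 3. It was 1 with median-ratio scaling, 1 with quantile normalization and 22 with library weights. With the replicate number as a block it was 1. Deviations from the group mean correlated at −0.20, −0.43 and 0.21 between same-numbered hearts. These values cannot decide whether the numbers pair hearts, because Het 1 deviated opposite to Het 2 and Het 3 in each comparison. The block left the count of members at 0. mt-Ti, mt-Tq, mt-Tm, mt-Nd2, mt-Th and mt-Tv kept their direction in all 16 alternatives. For mt-Tm the limma adjusted p values ran from 1.7e-06, in the setting chosen after seeing the data, to 0.937. Otub1 had a log2 fold change of −1.19 (adjusted p 0.376), between −1.26 and −1.06 with 1 library left out. It passed with library weights (−1.07, adjusted p 0.00385), without Het 1 (−1.06, adjusted p 0.0129) and without Het 1 scaled to mitochondrial mRNA (−1.14, adjusted p 0.00159). No member passed in the full fit, so every member that turned was short of the threshold there. Turns were not limited to the members named next. Scaled to mitochondrial mRNA, mt-Nd1 turned to −0.053, mt-Co2 to −0.11, mt-Nd5 to −0.072, mt-Nd4l to −0.096 and mt-Tl1 to −0.092. Quantile normalization turned mt-Atp8 to −0.086, mt-Nd5 to −0.10 and mt-Nd4l to −0.082. mt-Rnr2 turned to −0.13 with quantile normalization, −0.018 with library weights and −0.14 without Het 1 scaled to mitochondrial mRNA, where mt-Rnr1 was at −0.0086. With 1 library left out mt-Rnr2 ranged from −0.064 (without Het 1) to 0.82 (without Het 3). mt-Tk turned to 0.10 with median-ratio scaling, 0.14 with quantile normalization, and 0.016 without Het 2. With 1 library left out it ranged from −0.436 (without Het 1) to 0.017 (without Het 3). The cause of these turns was not tested. Weighted by gene length, the Het minus WT difference in share was −0.80 percentage points for mRNA (−2.72 by FPKM) and 0.18 for tRNA (2.24 by FPKM). Median-ratio scaling moved the median log2 fold change of all genes from −0.18 to −0.00. At an unadjusted p under 0.05 there were then 181 genes higher and 212 lower, against 89 and 342.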
